A study of Mus musculus with 3 samples.

Results

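The AP-1 immediate early transcription factors were taken as 8 genes, Fos, Fosb, Fosl1, Fosl2, Jun, Junb, Jund and Atf3, out of 32285 genes counted in single cells of the mouse hypothalamus. They were matched by gene symbol, and each of the 8 had unique molecular identifiers (UMIs, 1 per captured RNA molecule) in every library. The study used 8-week-old male mice and holds 3 droplet libraries made with a 10x 3′ kit. PF is the intake-matched control, which accounts for the change in eating under heat, HS is the heat-exposed state, and QS is the state of recovery after the exposure. The labels name no genetic change in any group, and the strain, the heat dose, the length of recovery and the number of mice behind each library are not stated in them. All tissue was digested with collagenase II and then dissociated mechanically. The question addressed is whether heat exposure leaves lasting changes in the transcriptional state of hypothalamic cells.

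AP-1 is a dimer of basic leucine zipper (bZIP) proteins. FOS proteins cannot pair with each other and bind DNA with a JUN partner, whereas JUN proteins also pair among themselves, and ATF3 pairs with JUN or with itself. Growth factors, calcium, cytokines, heat and other stresses reach these genes through MAP kinases, CREB and serum response factor, and their transcripts appear within minutes and are short-lived. In the brain Fos is used as a mark of recent stimulation, and the same genes are known to be induced while tissue is digested into single cells, so their level in dissociated cells can hold a response in the animal and one to the preparation.

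Each group is 1 library, so no comparison here has a replicate check and no test was made. The intervals given are exact 95% Poisson or binomial limits and cover counting error only. PF had 12836 barcodes, HS 12510 and QS 11720, of which 11858, 11630 and 10782 were kept as cells after filtering and removal of called doublets, with medians of 6143, 6298 and 6162 UMIs per cell. Pairs of libraries shared 37 to 51 barcodes and no barcode was in all 3. A cell was placed in a class, written as endothelial-like and so on, when that class's marker genes clearly led in it, which placed 32132 of 34270 cells. In 7 classes every library had at least 200 cells, and these carry the comparisons. Tanycyte-like, fibroblast-like, T or NK-like cells and border-associated macrophage-like cells had 61 to 307 cells per library and are given as levels and ratios beside them. Neuron-like cells numbered 47, 51 and 60, too few for a level here, so nothing below bears on Fos in hypothalamic neurons. Levels are in CPM, the UMIs of a gene relative to all UMIs of the summed cells of a class. They are not divided by transcript length. The level of a gene is compared across classes and libraries and not with the level of another gene. Shares of member UMIs given below are shares of counts.

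The genes lie on separate chromosomes apart from Junb and Jund (GRCm38, GENCODE annotation). Fos spans chr12:85473890-85477273 on the plus strand, Fosb chr7:19302696-19310051 on the minus strand, Fosl1 chr19:5447547-5455946 on the plus strand and Fosl2 chr5:32135801-32157842 on the plus strand. Jun spans chr4:95049034-95052222 on the minus strand, Junb chr8:84974484-84978718 on the minus strand, Jund chr8:70698949-70700616 on the plus strand and Atf3 chr1:191170296-191218039 on the minus strand. All 8 are protein-coding genes, and the antisense gene Junos overlaps Jun. Of the 8 members, 7 had an entry in the RefSeq promoter table for GRCm38.p6 (all but Fosl1). The 250 bases upstream of the RefSeq start are printed for Fos, Fosb and Junb, which were lower in recovery in oligodendrocyte-like cells and higher in recovery than under heat in ependymal-like cells, with the core of the cAMP response element (TGACG, bound by CREB and ATF factors) in capitals. Atf3 differed in the same way and is not printed, since its RefSeq start lies 34706 bases from the annotated gene start. Jun, which differed in 1 of those 2 classes, is printed beside them with a match to 2 inverted heat shock factor units (GAANNTTC) in capitals.

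Fos, chr12:85473640-85473889, plus strand: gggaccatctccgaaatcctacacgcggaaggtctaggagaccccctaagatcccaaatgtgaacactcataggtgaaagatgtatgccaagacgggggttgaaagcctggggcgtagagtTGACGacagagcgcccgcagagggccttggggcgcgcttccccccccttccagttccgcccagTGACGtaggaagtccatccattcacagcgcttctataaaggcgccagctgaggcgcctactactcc
Fosb, chr7:19310046-19310295, minus strand: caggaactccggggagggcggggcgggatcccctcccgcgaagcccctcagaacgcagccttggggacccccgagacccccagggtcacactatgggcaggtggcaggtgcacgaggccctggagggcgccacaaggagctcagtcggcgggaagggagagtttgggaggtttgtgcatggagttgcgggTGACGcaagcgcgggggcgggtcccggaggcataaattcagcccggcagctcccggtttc
Junb, chr8:84978749-84978998, minus strand: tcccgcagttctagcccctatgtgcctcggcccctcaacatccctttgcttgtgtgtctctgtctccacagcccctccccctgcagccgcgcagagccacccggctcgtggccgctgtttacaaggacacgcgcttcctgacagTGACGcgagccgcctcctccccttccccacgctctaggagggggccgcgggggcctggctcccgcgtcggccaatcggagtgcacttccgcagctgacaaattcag
Jun, chr4:95052223-95052472, minus strand: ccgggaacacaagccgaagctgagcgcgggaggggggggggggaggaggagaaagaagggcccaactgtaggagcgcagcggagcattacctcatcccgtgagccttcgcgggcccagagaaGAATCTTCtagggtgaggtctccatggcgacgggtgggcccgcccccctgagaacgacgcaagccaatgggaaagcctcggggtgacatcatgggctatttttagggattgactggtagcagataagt

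On either strand TGACG was found 129 and 66 bases upstream of the Fos start, 60 bases upstream of Fosb, 106 bases upstream of Junb and 7 bases upstream of the RefSeq start of Atf3. It occurs in 17.9% of 32536 promoter windows of the same length. GAANNTTC was found 128 bases upstream of Jun and 244 bases upstream of the RefSeq start of Fosl2, and occurs in 6.72% of windows. Fos also holds TATAAA 33 bases upstream, which occurs in 12.3% of windows. The full element TGACGTCA (1.56% of windows, and also a match to TGACG), the AP-1 site TGANTCA (6.73%) and the CArG box of serum response factor (1.48%) were not found in any of the 7 windows. These are matches of letters in short windows and show no binding.

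The 8 transcripts together were higher in vascular and macrophage classes than in the glial classes, and lowest in oligodendrocyte-like and astrocyte-like cells. Summed over the 8 genes, vascular smooth muscle-like cells were at 31858 (PF), 31452 (HS) and 33633 (QS) CPM, that is, about 3 of every 100 UMIs. Pericyte-like cells were at 25081, 23549 and 22008.5 CPM. Endothelial-like and microglia-like cells, the 2 classes with the most cells, were at 22816, 21805 and 23459.6 CPM and at 22382, 22170.4 and 24072 CPM. Ependymal-like cells, which line the ventricles and carry cilia, stood lower at 7352, 5679 and 10122 CPM. Oligodendrocyte-like cells were at 2936, 2127 and 2061 CPM and astrocyte-like cells at 1562, 1716 and 1402 CPM. Between the highest and the lowest class in PF lay a ratio of 20.4 (19.9 to 20.9), far wider than any ratio of the sum between libraries within a class. It was 46.7 with 5% of UMIs subtracted as free RNA. The order of the classes by their median over the 3 libraries was the one given, and pericyte-like, endothelial-like and microglia-like cells overlapped in their ranges. Of the smaller classes, border-associated macrophage-like cells stood at 28298, 26838 and 33213 CPM, fibroblast-like cells at 18989, 23479.6 and 15155 CPM, T or NK-like cells at 9143, 7804 and 7623 CPM and tanycyte-like cells at 8116, 16246 and 17012 CPM.

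**Figure D1:**
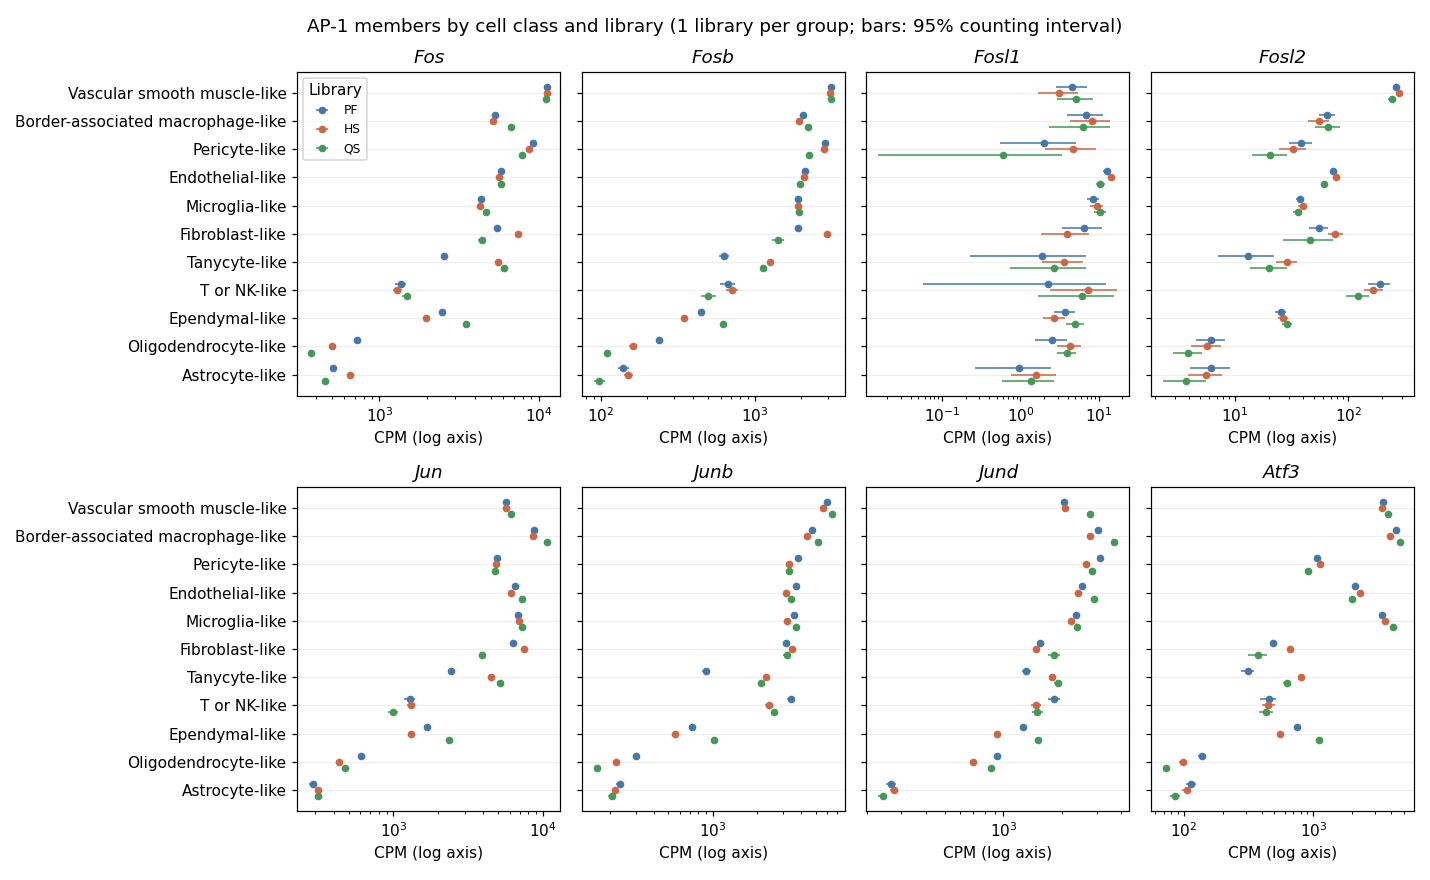
Level of each member in CPM (log axis) in 11 cell classes, 1 point per library (PF, HS, QS), with exact 95% counting intervals as bars. The vascular and macrophage classes at the top lie above the oligodendrocyte-like and astrocyte-like classes for Fos, Fosb, Fosl2, Jun, Junb and Atf3. For most members the 3 libraries lie apart in ependymal-like and oligodendrocyte-like cells, and PF lies below HS and QS in tanycyte-like cells.

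Among the FOS proteins, Fos itself was at 11312, 11357 and 11173 CPM in vascular smooth muscle-like cells (for PF, 52191 UMIs and an interval of 11216 to 11409.9). Its range over the 3 libraries was 7858 to 9232 CPM in pericyte-like cells. Endothelial-like cells ranged from 5599 to 5804 CPM and microglia-like cells from 4263 to 4653 CPM. These 4 classes did not overlap, so the order of Fos among them was the same in each library. Ependymal-like cells followed at 1952 to 3481 CPM, and oligodendrocyte-like (373 to 718) and astrocyte-like cells (453 to 649) overlapped at the bottom. Fosb, whose protein has a short splice form that accumulates after repeated stimulation, had the same leading classes, at 3098 to 3146 CPM in vascular smooth muscle-like and 2260.4 to 2854 CPM in pericyte-like cells. The 3' counts do not separate its splice forms. Fosl1 (FRA-1) was scarce everywhere and was highest in endothelial-like cells at 12.6, 14.2 and 10.5 CPM. In astrocyte-like cells it rested on 4, 10 and 8 UMIs, and in fibroblast-like cells of QS it had 0 UMIs, with an upper limit of 9.98 CPM.

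Fosl2 (FRA-2) had an order of its own. It was at 266, 278 and 242 CPM in vascular smooth muscle-like cells and 72.8, 77.7 and 60.9 CPM in endothelial-like cells, the class next below among the 7. T or NK-like cells, low for Fos, held 189, 167 and 122 CPM of Fosl2. Its median over the libraries was 47.3 times higher in vascular smooth muscle-like than in astrocyte-like cells, against 22.4 times between the highest and lowest class for Fos and 10.7 times for Jund.

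Of the JUN proteins, each of which can partner FOS proteins, Jun was highest among the 7 classes in microglia-like cells at 6822, 6973 and 7243 CPM. Endothelial-like cells at 6509, 6144 and 7320.1 CPM overlapped that range. Border-associated macrophage-like cells, a smaller class outside the 7, were higher at 8733, 8622 and 10658 CPM. Junb, which can restrain Jun, was led by vascular smooth muscle-like cells at 5983, 5649 and 6420 CPM, while pericyte-like, endothelial-like and microglia-like cells overlapped between 3156 and 3817 CPM. In T or NK-like cells Junb was at 3380.0, 2395 and 2591 CPM, nearer to its level in those classes than Jun was, which stood at 1282, 1309 and 997 CPM against 4787 to 7320.1 CPM there. Jund, known for more constant transcription than the other members, was flatter across classes than Fos, Fosb, Fosl2, Jun, Junb and Atf3. It was at 3106, 2652 and 2845 CPM in pericyte-like cells and still at 922, 700.0 and 863 CPM in oligodendrocyte-like cells. Jund therefore made up 31.4%, 32.9% and 41.9% of all member UMIs in oligodendrocyte-like cells, against 6.42%, 6.58% and 8.24% in vascular smooth muscle-like cells.

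Atf3, a stress-induced factor that can repress transcription, was highest among the 7 classes in microglia-like cells at 3370.0, 3550.5 and 4098 CPM and in vascular smooth muscle-like cells at 3436, 3359.6 and 3777 CPM, and these ranges overlapped. The smaller class of border-associated macrophage-like cells was at 4380, 3900 and 4654 CPM, above both in each library. Pericyte-like cells, second for Fos, held less Atf3 (1065, 1119 and 916 CPM) than endothelial-like cells (2096, 2308.5 and 2001 CPM). Astrocyte-like cells were at 114, 105 and 86.2 CPM.

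Shares of cells with a Fos UMI were also high in vascular cells and low in 2 glial classes. With each cell thinned to 2000 UMIs, a Fos UMI was seen in 99.3%, 99.0% and 98.6% of vascular smooth muscle-like cells, in 47.4%, 48.0% and 38.8% of astrocyte-like cells and in 51.8%, 47.9% and 37.4% of oligodendrocyte-like cells. Astrocyte-like cells were lowest in PF and oligodendrocyte-like cells in HS and QS. Without thinning the astrocyte-like shares were 67.7%, 65.0% and 55.6%, at medians of 3434 to 3840.0 UMIs per cell against 7618 to 7956 in vascular smooth muscle-like cells. Free RNA from broken cells gives some UMIs in every droplet, so a part of these lowest shares may be background. Counted over the 8 genes, the thinned cells held a median of 64, 62 and 65 member UMIs in vascular smooth muscle-like cells, 44, 41 and 42 in endothelial-like cells and 2, 2 and 1 in astrocyte-like cells.

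The first comparison, HS against PF, asks what the heat-exposed state holds beyond matched food intake. A ratio was called when it was at least 1.5 in either direction, the interval left out 1 and at least 30 UMIs stood behind the larger value. Of 53 pairs of member and class that could be called, 0 were called higher and 0 lower, where 2.04% of all pairs of gene and class were called higher and 1.91% lower. In vascular smooth muscle-like cells, 6 of the 7 members measured with enough UMIs had ratios from 0.944 (Junb) to 1.01, and Fosl2 was at 1.05. The lowest ratios resting on at least 30 UMIs were in 2 glial classes. In oligodendrocyte-like cells Fosb was at 238 CPM in PF and 161 CPM in HS (ratio 0.677, 0.630 to 0.727) and Fos at 718 and 505 CPM (0.705, 0.676 to 0.734), where 1.94% of genes in the class were called higher and 2.37% lower. In ependymal-like cells 7 of 8 members were lower in HS, from 0.729 (Fosl1) to 0.794 (Fos), and Fosl2 was at 1.04, where 1.41% of genes were called higher and 1.65% lower. Fos in astrocyte-like cells went the other way, at 512 and 649 CPM (1.27, 1.20 to 1.34). With these cells binned by UMI count, the summed members were higher in HS only in the deepest bin (1480 in PF, 2181 in HS). The shallower bins were at 1823 and 1654, 1770 and 1280, and 1444 and 1276 CPM. After thinning to 2000 UMIs, the 10% of cells with the most member UMIs held 39.2% of them in PF and 46.9% in HS. The count of 0 depended on the settings: subtracting 5% of UMIs as free RNA gave 2 higher and 5 lower calls, a mean over cells gave 5 lower, and a lower threshold gave 1 higher and 12 lower.

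The second comparison, QS against PF, asks what is left after recovery. Of 52 pairs, 0 were called higher (1.67% of all pairs) and 6 lower (3.6% of all pairs). The higher calls became 4 with free RNA subtracted and 4 with a mean over cells, and a lower threshold gave 6 higher and 10 lower. Oligodendrocyte-like cells held 5 of the 6, where 4.67% of 12327 genes of that class were called lower and 2.11% higher. Fosb was at 238 (PF), 161 (HS) and 111 (QS) CPM, a ratio of QS to PF of 0.464 (0.432 to 0.497). Fos was at 718, 505 and 373 CPM (0.520, 0.5003 to 0.541), and Atf3 at 138, 99.6 and 73.7 CPM (0.534, 0.489 to 0.583). For each of these 3 genes PF was highest, HS between and QS lowest, with intervals that did not overlap. Junb showed the same order at 303, 222 and 163 CPM (0.538, 0.507 to 0.571). Fosl2, at 6.20, 5.67 and 3.91 CPM, was called on few UMIs (0.631, 0.417 to 0.955). The other 2 JUN proteins were less changed, Jun at 608, 428 and 470 CPM (0.773, 0.744 to 0.803) and Jund at 922, 700.0 and 863 CPM (0.936, 0.908 to 0.964). The member median was -0.78 on the log2 scale against -0.02 for all genes of the class.

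PF was highest in each of the 3 clusters of oligodendrocyte-like cells, with summed levels of 2998, 2259 and 2237 CPM in cluster 5, 2709, 1953 and 1831 CPM in cluster 16 and 2557, 1854 and 1879 CPM in cluster 21. Summed endothelial, microglia and fibroblast markers moved the same way in these cells, and those of other cell types were highest in HS. Astrocyte markers were at 232, 331 and 252 CPM and ependymal markers at 116, 132 and 101 CPM. Tanycyte markers were at 16.7, 58.2 and 21.2 CPM and neuron markers at 41.2, 51.3 and 37.7 CPM. All 10 endothelial markers summed to 511, 379 and 332 CPM and all 10 microglia markers to 237, 187 and 181 CPM. The 9 fibroblast markers summed to 2326, 2209 and 1630.3 CPM, with Slc22a6 at 0 in QS. Their list includes Apod and the sum is not split by gene here, so it is not read as RNA of fibroblasts. The 10 oligodendrocyte markers went the other way, at 45796, 48109 and 53245 CPM, and the median mitochondrial share was 6.38%, 5.67% and 5.14%. The part of these in the result was not tested.

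Outside oligodendrocyte-like cells the remaining call was Fosl2 in pericyte-like cells, at 38.1, 32.9 and 20.7 CPM (0.542, 0.351 to 0.823), where 3.56% of genes were called lower. The vascular and immune classes with the highest AP-1 levels differed little. In vascular smooth muscle-like cells Jund was at 2045, 2069.9 and 2770.4 CPM, a ratio of QS to PF of 1.35 (1.31 to 1.40) under the threshold, and Fos, Fosb, Jun, Junb and Atf3 were between 0.988 and 1.10. In microglia-like cells the widest ratio among the members other than Fosl1 was that of Atf3, 1.22 (1.20 to 1.23).

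The third comparison, QS against HS, sets recovery against heat exposure. Both shared libraries enter the comparisons with PF as well, so these ratios are not independent of those above. Of 53 pairs, 7 were called higher (2.24% of all pairs) and 2 lower (3.98%). The lower calls became 8 with free RNA subtracted, 9 at the lower threshold and 1 with the stricter marker gate. All 7 higher calls were in ependymal-like cells, where 2.42% of 14160 genes were called higher and 3.1% lower. Fos was at 2460.0 (PF), 1952 (HS) and 3481 (QS) CPM, a ratio of QS to HS of 1.78 (1.76 to 1.81). Atf3 was at 753, 555 and 1101 CPM (1.98, 1.93 to 2.04) and Jun at 1675, 1306 and 2365 CPM (1.81, 1.78 to 1.84). PF lay between HS and QS for each, and QS was above PF by less than the threshold (1.41 for Fos, 1.46 for Atf3 and 1.41 for Jun, 0 of 8 members called, where 1.67% of genes were called higher and 2.65% lower). Junb was at 726, 559 and 1016 CPM (1.82, 1.77 to 1.87), Fosb at 447, 345 and 623 CPM (1.80, 1.74 to 1.87) and Jund at 1262, 932 and 1503 CPM (1.61, 1.58 to 1.65). Fosl1 was called on 40 and 59 UMIs (1.84, 1.21 to 2.81), and Fosl2 at 25.5, 26.6 and 29.1 CPM was not called (1.09, 0.944 to 1.27). Thus 7 of the 8 members were higher by similar ratios in this class, with a median of 0.85 on the log2 scale against -0.03 for all genes.

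The ependymal-like pattern was seen in both deep clusters of the class. Cluster 3 was at 6694, 5460 and 8863 CPM for the summed members, and cluster 14 at 9089.7, 6759 and 14437 CPM. A cluster of cells with few UMIs, cluster 17, had QS close to PF and HS below both (6885, 3749 and 6915 CPM). When the cells of each library were divided into 4 bins by UMI count, QS was highest and HS lowest in each bin, from 5904, 4328 and 8246 CPM in the shallowest to 8378, 6051 and 10675 CPM in the deepest. All 10 ependymal markers were detected and summed to 11215, 10765 and 10917 CPM. Endothelial markers (10 of 10 detected) were at 432, 397 and 269.9 CPM and microglia markers (10 of 10) at 229.5, 200.4 and 170.0 CPM, lowest in QS, where the members were highest. Neuron markers had the order of the members, at 441, 420 and 525 CPM. Astrocyte markers (1535, 1756 and 1644 CPM) and tanycyte markers (173, 193 and 192 CPM) were lowest in PF. The part of these markers in the result was not tested. The median mitochondrial share was 4.20%, 4.12% and 3.70%, and its part in the result was not tested.

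**Figure D2:**
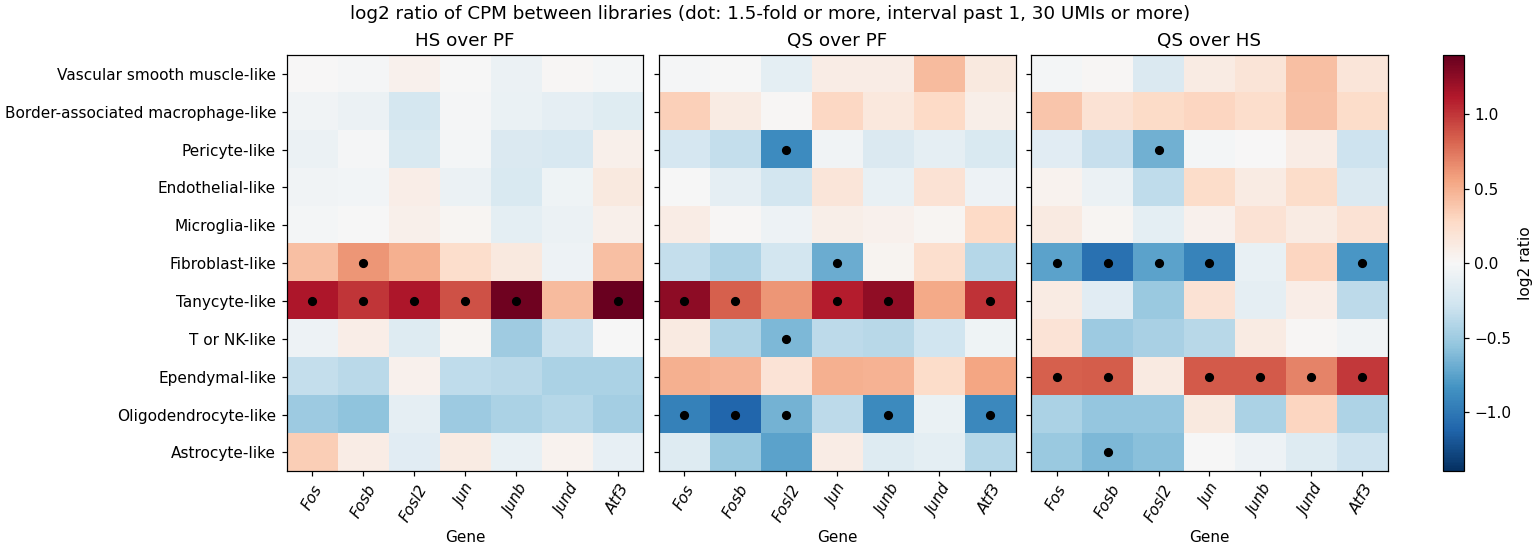
Log2 ratio of CPM between libraries for 7 members (columns; Fosl1 is left out for its low counts) in 11 cell classes (rows), with a panel for HS over PF, QS over PF and QS over HS; a dot marks a ratio of at least 1.5 whose interval excludes 1 and that rests on at least 30 UMIs. Of the 7 members, dots mark 6 (HS over PF) and 5 (QS over PF) in the tanycyte-like row, 5 in the oligodendrocyte-like row for QS over PF and 6 in the ependymal-like row for QS over HS, while the vascular smooth muscle-like row has none.

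The 2 calls lower in QS than in HS were Fosb in astrocyte-like cells, at 140.4, 151 and 98.1 CPM (0.649, 0.585 to 0.720, where 3.31% of genes were called lower), and Fosl2 in pericyte-like cells (0.628, 0.398 to 0.979, where 3.47% were). In oligodendrocyte-like cells 0 of 8 members were called in this comparison, where 2.47% of genes were called higher and 3.93% lower.

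Tanycyte-like cells, glia of the third ventricle's floor that link blood, cerebrospinal fluid and the hypothalamus, had the largest differences from PF, with the caution that PF held only 101 of them against 269 in HS and 143 in QS. Of 7 members with enough UMIs, 6 were called higher in HS than in PF (4.06% of 10554 genes were, and 3.28% lower) and 5 higher in QS than in PF (4.42% of 8204 genes, and 4.22% lower). Fos was at 2535, 5568 and 6052 CPM, a ratio of HS to PF of 2.20 (2.11 to 2.29) and of QS to PF of 2.39 (2.29 to 2.49). Junb was at 897, 2304 and 2115 CPM (2.57 and 2.36), and Atf3 at 311, 811 and 628 CPM (2.61 and 2.02). Jun, at 2419.6, 4492 and 5172 CPM (1.86 and 2.14), and Fosb, at 629.8, 1259.7 and 1129 CPM (2.0001 and 1.79), were also called in both. Fosl2 was called in HS only (2.20, 1.247 to 4.17), with 1.54 (0.790 to 3.13) in QS, and Jund was not called in either (1.36 and 1.45). None of the 7 was called between QS and HS, with 2.56% of genes called higher and 2.98% lower, so the difference here was between PF and both other libraries.

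The choice of cells did not end that difference. A stricter marker gate left 55, 155 and 71 cells at 7511, 15485 and 17164 CPM for the summed members. All cells of the cluster that held most tanycyte-like cells, which was left unnamed because ependymal markers also scored in it, were at 7938, 14492 and 15677 CPM. Gated cells with at least 4000 UMIs were at 8292, 16591 and 17561 CPM, and those with at most 10% mitochondrial UMIs at 8414, 16596 and 17557 CPM. Tanycyte markers summed to 7421, 7735 and 6614 CPM with all 10 detected in each library. Within them Rax, which defines the lineage, was at 423, 390 and 309.9 CPM, Vcan was lower under heat and recovery (259, 160 and 124 CPM) and Frzb higher (131, 170.3 and 176 CPM). The part of these shifts in the result was not tested. The median mitochondrial share was 7.30%, 5.80% and 5.03%, highest where the members were lowest, and its part was not tested beyond the subset with at most 10%. Endothelial markers were at 482, 348 and 243 CPM and microglia markers at 185, 184 and 187 CPM (10, 10 and 9 of 10 detected). Neuron markers summed to 3114, 2977 and 2992 CPM, with the defining Slc17a6 and Slc32a1 at 0 in every library.

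Fibroblast-like cells had Fosb higher in HS than in PF, at 1915 and 2942 CPM (1.54, 1.48 to 1.60), where 2.26% of genes were called higher. Against HS, QS was lower for Fos, Fosb, Fosl2, Jun and Atf3, 5 of 7 members with enough UMIs (9.02% of genes), and against PF for Jun (0.618, 7.98% of genes). Only 67 cells were in QS, and 51 of them belonged to cluster 23, which held 99 of 302 PF and 95 of 307 HS cells. Within cluster 23 the summed members were at 13469.7, 18002 and 14025 CPM, so QS was not below PF there, and the mix of clusters moves with the result. In T or NK-like cells Fosl2 was lower in QS than in PF (0.645, 0.469 to 0.886), 1 of 7 members where 5.78% of genes were called lower. In border-associated macrophage-like cells no member was called in any comparison (0 of 7 each). The share of genes called higher and lower there was 2.38% and 4.1% for HS against PF, 3.39% and 6.39% for QS against PF, and 3.7% and 6.32% for QS against HS.

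Counted per cell, the differences were seen in the median cell of a class. After thinning to 2000 UMIs the median ependymal-like cell held 10 (PF), 7 (HS) and 17 (QS) member UMIs, and 41.9%, 31.4% and 61.6% of cells had at least 5 of the 8 genes. The 10% of cells with the most member UMIs held 29.2%, 30.8% and 24.2% of them. A Fos UMI was found in 79.5%, 73.3% and 88.9% of thinned ependymal-like cells and in 94.2%, 94.4% and 95.1% without thinning. Without thinning this share therefore no longer separated the libraries, while Fos in CPM did (2460.0, 1952 and 3481). The median tanycyte-like cell held 7, 19.5 and 25 member UMIs, and at least 5 members were seen in 24.5%, 50.4% and 58.7%. Oligodendrocyte-like cells stood at medians of 4, 3 and 3, and their Fos share was lowest in QS, whereas their Jund share was 81.1%, 74.6% and 81.0%.

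**Figure D3:**
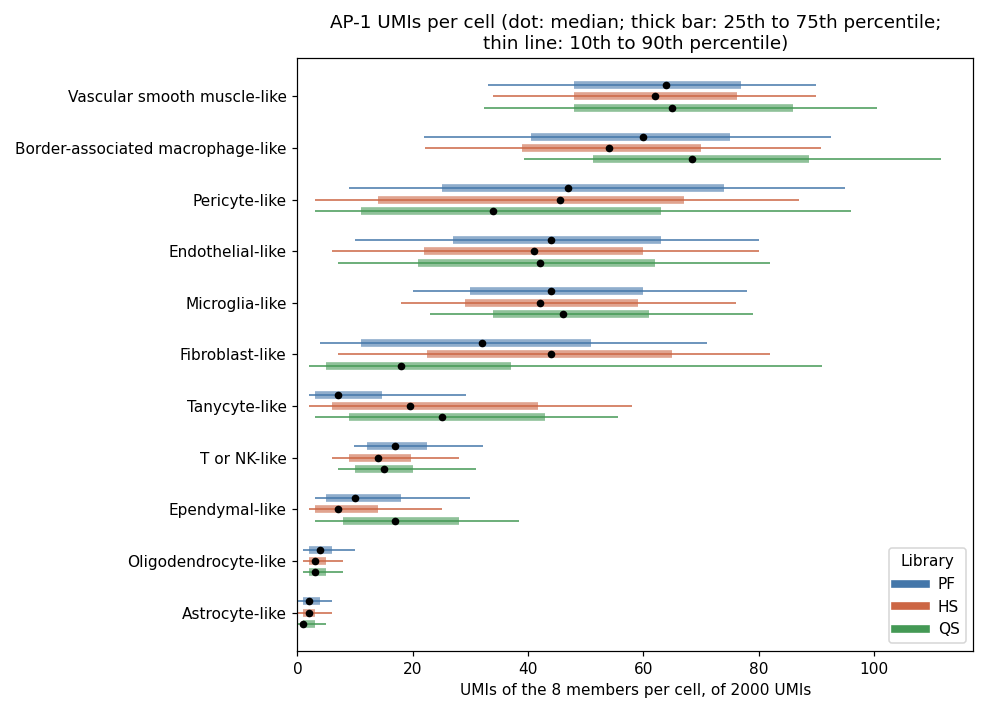
Member UMIs per cell after thinning each cell to 2000 UMIs, by class and library, with the median (dot), the 25th to 75th percentile (thick bar) and the 10th to 90th percentile (thin line). Medians are lowest at 1 or 2 in astrocyte-like cells. They are highest in vascular smooth muscle-like cells (62 to 65) and border-associated macrophage-like cells (60, 54 and 68.5). In tanycyte-like cells the medians are 7, 19.5 and 25. The 25th to 75th percentiles there overlap widely between HS (6 to 41.75) and QS (9 to 43), against 3 to 14.75 in PF.

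**Figure D4:**
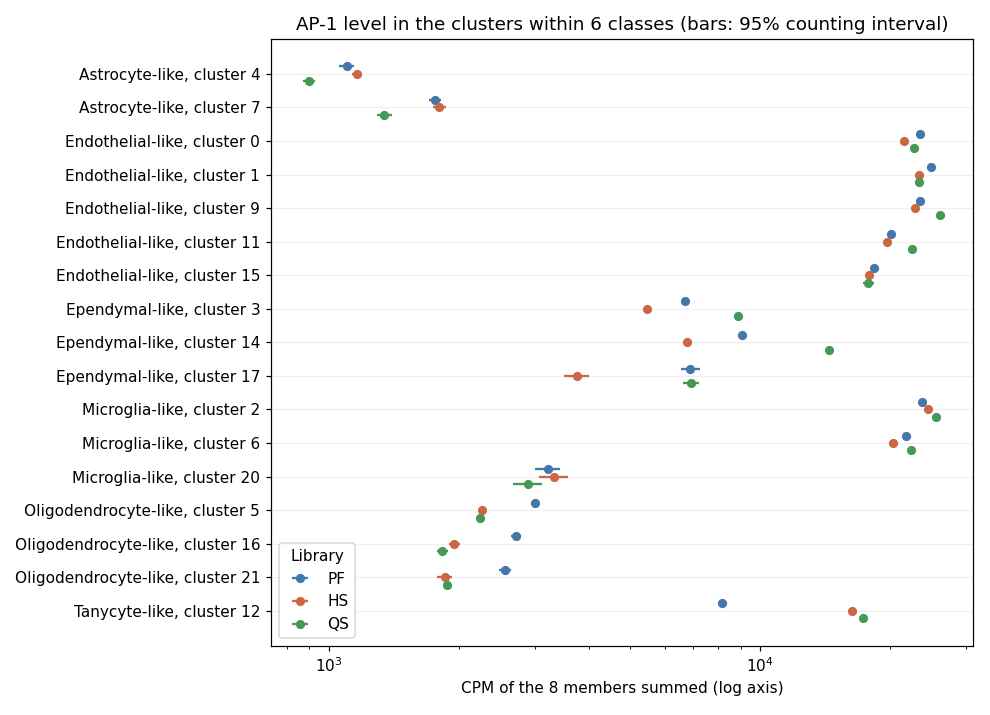
Summed level of the 8 members in CPM (log axis) in the clusters that make up 6 classes, 1 point per library with exact 95% counting intervals. The order QS, PF, HS recurs in ependymal-like clusters 3 and 14, PF is highest in all 3 oligodendrocyte-like clusters, and in the endothelial-like clusters the 3 libraries lie close together.

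The genes around AP-1 were read from lists by role: upstream kinases and factors, feedback inhibitors, other bZIP factors, known targets, other immediate early genes, and stress genes associated with dissociation. In ependymal-like cells, QS against HS, 12 of 20 other immediate early genes were called higher and 0 lower. Of all genes of the class 2.42% were called higher and 3.1% lower in this comparison. Arc, a synaptic activity gene, was at 29.5 (HS) and 83.1 (QS) CPM (2.82, 2.52 to 3.16) and the nuclear receptor Nr4a1 at 164 and 338 CPM (2.06, 1.95 to 2.16). Of 14 feedback inhibitors 5 were higher, led by the MAP kinase phosphatases Dusp8 (2.13) and Dusp16 (1.75). Of 19 upstream kinases and factors 0 were higher and 1 lower. Heat shock and cytokine genes associated with dissociation were higher in 4 of 14. More of the immediate early genes than of the kinases above the members were thus called.

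In oligodendrocyte-like cells, QS against PF, 10 of 19 other immediate early genes were called lower, among them Klf2 (183 and 93.7 CPM, 0.513) and Ccn2 (0.250). Of all genes of the class 4.67% were called lower and 2.11% higher in this comparison. Of 14 dissociation-associated genes 7 were lower, led by the heat shock genes Hspa1a (326 and 136 CPM, 0.416) and Hspa1b (0.462). Feedback inhibitors were lower in 4 of 13, with Dusp1 at 182 and 103 CPM (0.565), and other bZIP factors in 3 of 16, with Maff at 0.511 and Cebpd at 0.592. Known targets were lower in 5 of 10 and higher in 1, with the hyaluronan receptor Cd44 at 0.284. Upstream genes were lower in 1 of 19, Elk3 (0.593), which is close to the share of all genes.

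In tanycyte-like cells, HS against PF, 11 of 18 other immediate early genes and 8 of 13 feedback inhibitors were called higher and 0 of either lower. Of all genes of the class 4.06% were called higher and 3.28% lower in this comparison. Egr1 was at 718, 1563 and 1437.5 CPM, the RNA-destabilizing protein gene Zfp36 at 263, 635.5 and 611 CPM, and Dusp1 at 525, 905 and 1244 CPM. Of upstream genes 0 of 19 were higher and 2 lower. Other bZIP factors were higher in 3 of 16, with Cebpb at 133, 331 and 302 CPM and Cebpd at 306, 780.3 and 603 CPM. Known targets were higher in 3 of 7, and dissociation-associated genes in 3 of 14, including Socs3 at 763, 1728 and 1898 CPM. QS against PF gave 12 of 16 immediate early genes and 6 of 10 feedback inhibitors higher, where 4.42% of all genes were called higher and 4.22% lower. These gene examples in tanycyte-like cells were picked after their values were seen.

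Over all 7 classes the lists gave these calls for HS against PF, where 2.04% of all pairs were called higher and 1.91% lower: 3 higher and 4 lower of 129 pairs for other immediate early genes, 0 and 1 of 93 for feedback inhibitors, 0 and 3 of 130 for upstream genes, 2 and 1 of 123 for other bZIP factors, 2 and 13 of 64 for known targets and 4 and 5 of 98 for dissociation-associated genes. Known targets were the group with the most lower calls, among them Spp1 (osteopontin) in astrocyte-like cells at 11.1 and 2.34 CPM (0.211, 0.110 to 0.386) and Cd44 in vascular smooth muscle-like cells (0.391, 0.223 to 0.661). Cebpd in astrocyte-like cells was among the higher calls (29.4 and 49.8 CPM, 1.70). Of the MAP kinase kinases, Map2k7, which activates the JNK enzymes that phosphorylate Jun, was lower in pericyte-like cells in HS (0.545, 0.349 to 0.835) and in QS (0.461, 0.285 to 0.727) against PF.

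Across the 21 points of 7 classes and 3 libraries, the genes whose log2 level followed the summed members most closely, out of 3068 candidates with a median of at least 50 CPM, were Egr1 (Pearson r 0.993), Pnrc1 (0.989) and Rbm3 (0.982). Fos was followed by Coq10b (0.982), Socs3 (0.978) and Rbpms (0.973), Fosb by Btg1 (0.990) and Jun by Egr1 (0.988). Junb was nearest to Egr1 (0.982), Jund to Arf1 (0.985) and Atf3 to Zfp36 (0.990). Among the members with at least 30 UMIs in every class and library, which leaves out Fosl1 and Fosl2, Fosb and Junb were most alike (0.993). Jund and Atf3 were least alike (0.854). Points of one library share its depth and preparation, and the 3 points of a class share its cells' type, so these are descriptions without a p-value.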

How the data were processed

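The authors deposited, for each of 3 libraries, raw UMI counts per gene and barcode. The submitters' processing notes name Cell Ranger 5.0.0, Seurat 3.1.2 and mm10, and the matrix headers name Cell Ranger 7.0.1. No source used here says whether introns were counted. Barcodes with under 500 UMIs, under 200 genes or over 20% mitochondrial UMIs were left out, as were doublets called with Scrublet in Scanpy 1.11.5 (784 PF, 672 HS and 727 QS). Cells were placed in a class where its marker level was at least 1.5 times that of the next class and at least 3 of its markers were detected. Of 27517 cells of the 7 classes in named Leiden clusters, 99.738% had the name of their cluster. Of 33 clusters 9 were left unnamed, and none was named vascular smooth muscle or tanycyte, so this agreement does not cover those classes. UMIs were summed per class and library and divided by the class total (CPM). Ratios have conditional binomial intervals, and the calls were tested on simulated data. Named list genes are up to 3 with the largest called ratio per list and comparison. The members and lists were chosen with earlier results of these data known. Alternatives were other gates, Leiden clusters, doublets kept, other filters, scaling, thresholds, free RNA subtracted and means over cells. The result of 1 list gene is not reported here.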

Additional observations from a re-analysis of the deposited data

Results flagged for a closer look

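For 11 listed comparisons the ratio between libraries of 1 member went in opposite directions in 2 classes, with both intervals excluding 1. Their higher ratios started at 1.27 and their lower ratios went up to 0.773. The list is not complete, since comparisons with a ratio nearer to 1 in either class were left out. Jun between HS and PF, for example, was at 1.02 in microglia-like and 0.944 in endothelial-like cells. Atf3 was at 1.10 in endothelial-like and 0.737 in ependymal-like cells. With 1 library per group the differences were not tested, and each listed pair was picked as the widest of its gene. Between QS and PF the ependymal-like ratio was above 1 and the oligodendrocyte-like ratio below 1 for 5 members. The first exceeded the second by 3.0045 times for Fosb (1.39 against 0.464), 2.74 times for Atf3 (1.46 against 0.534), 2.72 times for Fos (1.41 against 0.520), 2.60 times for Junb (1.40 against 0.538) and 1.83 times for Jun (1.41 against 0.773). Between QS and HS the ependymal-like ratio exceeded the astrocyte-like ratio by 2.78 times for Fosb (1.80 against 0.649) and 2.56 times for Fos (1.78 against 0.698). It exceeded the oligodendrocyte-like ratio by 2.68 times for Atf3 (1.98 against 0.740) and 2.48 times for Junb (1.82 against 0.733), and the endothelial-like ratio by 2.50 times for Fosl1 (1.84 against 0.735). Between HS and PF, Fos was higher in astrocyte-like (1.27) and lower in oligodendrocyte-like cells (0.705), a factor of 1.80. The summed members of astrocyte-like cells were higher in HS only in the bin of cells with the most UMIs.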

How the results depend on the processing

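No paired analysis was possible because each group is 1 library. Of up to 161 ratios of member, class and comparison, 0 changed direction with a minimum of 10 or 1000 UMIs, 10% mitochondrial UMIs, doublet calls kept, another scaling, another total or free RNA subtracted. With classes from Leiden clusters Jun in astrocyte-like cells reversed (HS to PF 0.951 and QS to PF 0.863). With a stricter gate it was 0.963 for HS to PF. With a mean over cells it was 0.898 and 0.900 (QS to PF), and Fos in endothelial-like cells was 0.960 for QS to HS. The astrocyte-like member median for HS to PF was -0.072, -0.059 and -0.16 under these 3 settings against 0.05. A lower threshold of a call, 5 to 4, gave 1 higher and 12 lower calls for HS to PF, 6 higher and 10 lower for QS to PF, and 9 lower for QS to HS. Subtracting 5% free RNA gave 2 higher and 5 lower for HS to PF, 4 higher for QS to PF and 8 lower for QS to HS. A mean over cells gave 5 lower for HS to PF and 4 higher for QS to PF, and the stricter gate 1 lower for QS to HS. The ratio of highest to lowest class, 20.4, was 23.3 with the stricter gate, 17.7 with doublets and 46.7 with free RNA subtracted. It was 21.5 without mitochondrial, ribosomal and haemoglobin genes. With Leiden clusters it was 17.6, but no cluster was named vascular smooth muscle. The highest class of the main ratio was therefore absent there, and the 2 values do not compare the same classes. The median Fos share of 88.9% was 96.1% at 4000 UMIs and 93.7% unthinned. The subsets of tanycyte-like, ependymal-like and oligodendrocyte-like cells were chosen after seeing the data and changed no direction.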

Other observations

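Some members varied together from cell to cell in one class and not in another. Over cells of a single library, Fosb and Junb had a Pearson r between 0.52 and 0.57 in endothelial-like cells and between 0.59 and 0.66 in pericyte-like cells, but between -0.04 and 0.02 in microglia-like cells, where both genes were abundant. In the same microglia-like cells Fos and Fosb had an r of 0.54, and Fos and Jun one between 0.53 and 0.55. Fosl2 in vascular smooth muscle-like cells, its highest class, had r of 0.02 to 0.06 with Fos. These are descriptions of cells that share a library, over thinned counts, and have no p-value.

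One microglia-like cluster had little AP-1 RNA. Cluster 20, led by Ctss, C1qa and C1qb, held 141, 96 and 111 cells with medians of 1626, 1875.5 and 1861 UMIs. Its summed members were at 3214, 3321 and 2891 CPM, against 21737, 20305 and 22417 CPM in cluster 6 and 23705, 24475 and 25519 CPM in cluster 2 of the same class.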
